A study of Homo sapiens with 7 samples.

Results

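The genes described here are 40 genes of the cornified envelope and of epidermal differentiation, taken as a list of names by function and without a threshold on any measured value. The list was chosen with earlier results of these data known. Their expression was followed by RNA-Seq in TE5 and KYSE140, which are cell lines derived from esophageal squamous cell carcinoma (ESCC). TE5 cells carried a non-targeting scramble shRNA, an shRNA against TP63, an shRNA against SOX2 or an shRNA against CCAT1, and KYSE140 cells carried the scramble, TP63 or SOX2 shRNA. TP63 and SOX2 encode transcription factors of squamous cells, and CCAT1 is a long non-coding RNA. All cells were grown in medium with fetal bovine serum, the shRNAs were delivered by lentivirus, and the labels give no time after infection. There was 1 library for each line and shRNA, 7 in all, so changes within 1 line could not be checked against replicates and are given without a p-value. Of the 40 genes, among 56237 with a transcript in the files, 31 reached at least 10 estimated counts in at least 1 library and are called measured. The 9 others were S100A7, S100A12, CRNN, RPTN, MAL, CDSN, LCE3D, LCE3E and CRCT1, whose highest count in any library lay between 0.0 (S100A12) and 9.8 (CDSN). These genes are named here only for that reason, since nothing can be said about their direction.

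The cornified envelope is the protein shell that replaces the plasma membrane of keratinocytes in their last stage of differentiation. Involucrin, the small proline-rich (SPRR) proteins and other precursors are cross-linked by transglutaminases beneath the membrane, with envoplakin and periplakin as the first scaffold and filaggrin as the organizer of keratin filaments in skin. Many of these genes lie side by side on chromosome 1 in the epidermal differentiation complex, which also holds the genes of S100 calcium-binding proteins. Esophageal epithelium stratifies without fully cornifying, yet its upper layers make many of the same proteins.

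The silenced genes were examined first. TP63 was at 25.9% of its scramble level in TE5 shTP63 and at 26.1% in KYSE140 shTP63. SOX2 was at 39.5% of scramble in TE5 shSOX2, but at 77.1% in KYSE140 shSOX2; most of its SOX2 mRNA therefore remained in that KYSE140 library. CCAT1 was at 30.6% of scramble in TE5 shCCAT1, but it was also at 37.9% and 50.7% in TE5 shTP63 and shSOX2 and at 41.0% and 42.9% in the same libraries of KYSE140, so its low level does not set the shCCAT1 library apart. In KYSE140 shSOX2 the level of TP63 was 126% of scramble, and in TE5 shTP63 that of SOX2 was 67.1%. The libraries held 68532611 to 98036494 estimated counts, and the intervals given below are 95% intervals that cover counting error only. KYSE140 scramble was sequenced on lane 2 and the KYSE140 knockdown libraries on lane 3. TE5 scramble came from lane 3 of another flow cell than the TE5 knockdown libraries, which shared lane 1. A change from scramble in either line therefore cannot be told apart from a change of lane, whereas TP63 and SOX2 silencing within a line were sequenced side by side. RNA of whole cultures was measured, so fewer cells that express a gene and less RNA of it per cell cannot be told apart. Markers of squamous epithelium were present in both lines, except that the basal keratin KRT14 stood at 0.546 TPM in TE5 scramble against 970 TPM in KYSE140 scramble.

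The stretches before the start sites of these genes share short motifs, and 29 of the 40 genes (21 of the 31 measured) have a promoter entry in RefSeq for GRCh38.p14. The 250 bases before the start are printed for the 6 genes with an AP-1 site that were higher upon SOX2 silencing in KYSE140 (IVL, SPRR1A, SPRR3, SPRR1B, SBSN, KRTDAP), and for SCEL and S100A2, which differed upon TP63 silencing in the DESeq2 test given further on. Capitals mark 3 motifs searched on both strands: TGANTCA, the binding site of AP-1 factors; TATAAA, the TATA box; and ACAANG, a core that SOX factors bind. Each sequence reads 5′ to 3′ on the strand of its gene and ends at the base before the start.
IVL, chr1:152908296-152908545, plus strand: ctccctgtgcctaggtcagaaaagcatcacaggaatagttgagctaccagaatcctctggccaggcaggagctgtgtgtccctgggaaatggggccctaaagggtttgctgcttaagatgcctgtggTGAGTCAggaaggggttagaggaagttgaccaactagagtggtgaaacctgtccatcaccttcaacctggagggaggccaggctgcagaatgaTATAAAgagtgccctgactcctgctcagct
SPRR1A, chr1:152983831-152984080, plus strand: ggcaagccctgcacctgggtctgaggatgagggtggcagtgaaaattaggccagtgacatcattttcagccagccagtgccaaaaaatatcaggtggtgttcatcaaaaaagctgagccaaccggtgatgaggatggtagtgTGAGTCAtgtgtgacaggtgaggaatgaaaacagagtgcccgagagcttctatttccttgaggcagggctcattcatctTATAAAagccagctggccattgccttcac
SPRR3, chr1:153001499-153001748, plus strand: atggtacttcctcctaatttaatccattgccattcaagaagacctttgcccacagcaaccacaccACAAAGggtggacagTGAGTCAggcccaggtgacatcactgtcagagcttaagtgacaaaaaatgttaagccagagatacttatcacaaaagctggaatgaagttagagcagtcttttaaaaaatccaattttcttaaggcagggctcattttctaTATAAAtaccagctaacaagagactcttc
SPRR1B, chr1:153030953-153031202, plus strand: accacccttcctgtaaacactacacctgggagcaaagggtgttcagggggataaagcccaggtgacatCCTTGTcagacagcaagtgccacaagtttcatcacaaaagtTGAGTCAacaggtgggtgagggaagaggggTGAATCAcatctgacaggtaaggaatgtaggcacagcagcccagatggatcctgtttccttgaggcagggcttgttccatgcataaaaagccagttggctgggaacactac
SBSN, chr19:35528312-35528561, minus strand: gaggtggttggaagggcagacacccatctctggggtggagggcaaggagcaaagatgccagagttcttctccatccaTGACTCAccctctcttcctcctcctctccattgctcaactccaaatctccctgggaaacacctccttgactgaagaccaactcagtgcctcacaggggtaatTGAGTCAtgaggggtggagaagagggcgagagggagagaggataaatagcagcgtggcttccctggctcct
KRTDAP, chr19:35490465-35490714, minus strand: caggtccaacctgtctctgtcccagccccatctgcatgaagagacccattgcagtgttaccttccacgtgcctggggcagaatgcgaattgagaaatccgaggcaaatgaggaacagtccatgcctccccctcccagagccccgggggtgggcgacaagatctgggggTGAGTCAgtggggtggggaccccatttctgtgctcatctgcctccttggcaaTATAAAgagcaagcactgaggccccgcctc
SCEL, chr13:77535456-77535705, plus strand: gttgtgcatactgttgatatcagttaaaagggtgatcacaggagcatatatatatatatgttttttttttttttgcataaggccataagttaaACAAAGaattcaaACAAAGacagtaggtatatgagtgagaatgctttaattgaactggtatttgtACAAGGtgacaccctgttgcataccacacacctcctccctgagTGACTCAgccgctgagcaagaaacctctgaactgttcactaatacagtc
S100A2, chr1:153565845-153566094, minus strand: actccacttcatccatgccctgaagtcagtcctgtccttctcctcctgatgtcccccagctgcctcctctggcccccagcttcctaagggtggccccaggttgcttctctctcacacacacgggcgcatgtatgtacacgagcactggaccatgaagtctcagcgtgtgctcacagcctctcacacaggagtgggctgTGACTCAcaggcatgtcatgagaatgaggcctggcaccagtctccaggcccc

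TGANTCA occurred in the window of 10 of the 21 measured genes with an entry, against 6.57% of all 35116 promoters. Its first base lay 123 bases before the start in IVL, 108 in SPRR1A, 170 in SPRR3, 82 in KRTDAP, 49 in SCEL and 52 in S100A2, and SPRR1B and SBSN each held a pair. Of the 12 measured genes with an entry that were higher upon SOX2 silencing in KYSE140, 6 held the motif, and of the 9 others 4 did (FLG, S100A2, SCEL, SPRR2A). TATAAA was found in 9 of the 21 against 10.7% of all promoters, and in the printed windows it lay 29 or 30 bases before the start in IVL, SPRR1A, SPRR3 and KRTDAP. ACAANG was found in 7 of the 21 against 30.9% of all promoters, with 3 copies in SCEL. A degenerate pattern of the p53 family, to which p63 belongs (2 copies of CNNG with 6 bases between them), was in 15 of the 21 and in 68.6% of all promoters. A match is a stretch of letters only, and nothing was measured at these sites here.

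The 40 genes together made up 0.52% of all transcripts in TE5 scramble and 0.562% in KYSE140 scramble, by TPM, a level scaled for transcript length and library size. Almost all of this came from 4 S100 genes and CSTA, each above 100 TPM in both scramble libraries, while 11 of the 31 measured genes in TE5 and 12 in KYSE140 were under 1 TPM. In the plot of levels these 5 genes sit on the right in every library.

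**Figure D1:**
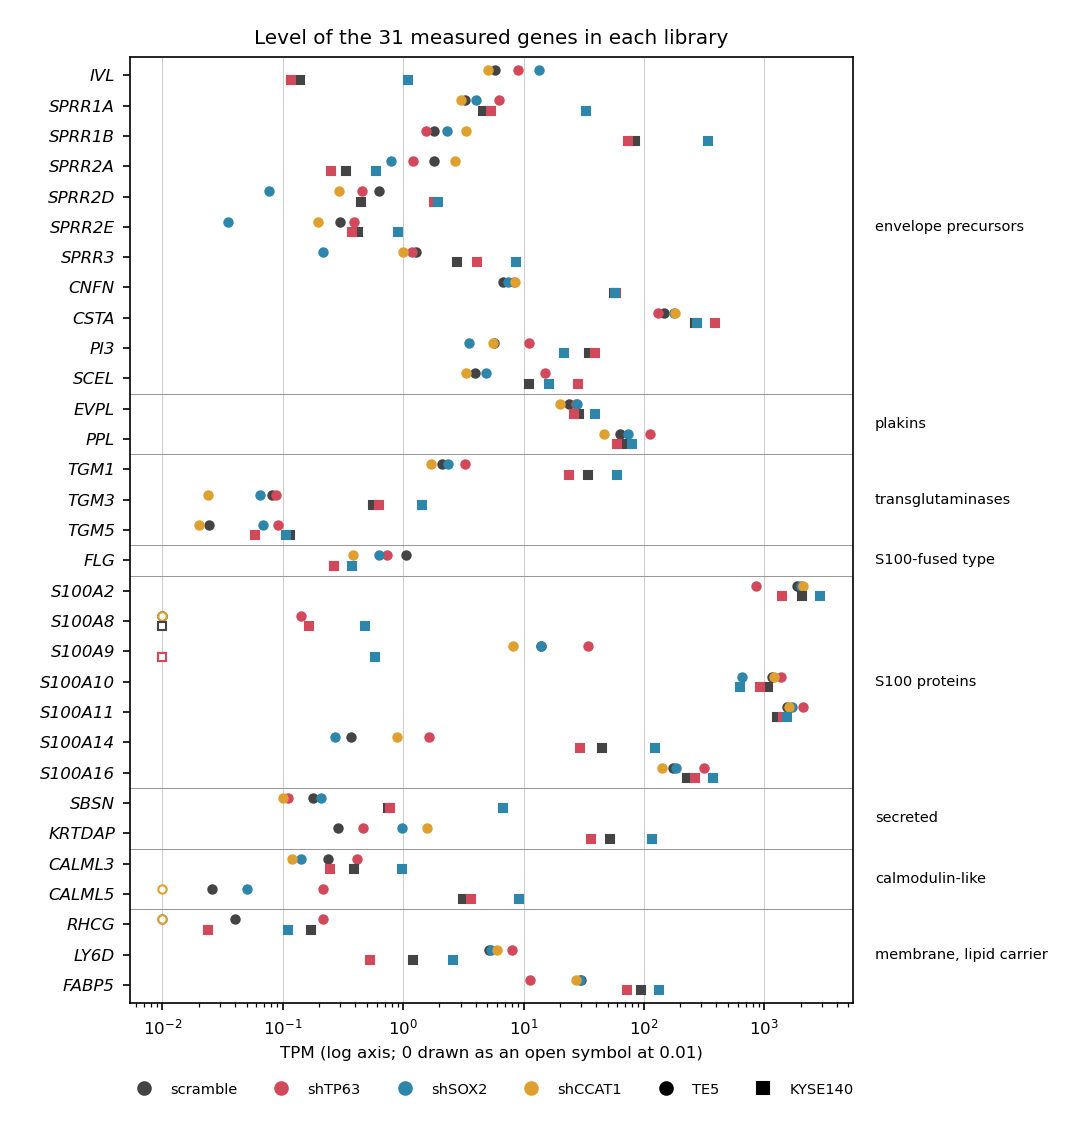
Level in TPM (x axis, log scale) of the 31 measured genes (y axis, by role) in each library; circles are TE5, squares are KYSE140 and colours give the shRNA, with 1 library per point. IVL and S100A9 were higher in TE5, KRTDAP, S100A14, SPRR1B and TGM1 were higher in KYSE140, and the blue squares (KYSE140 shSOX2) lie furthest right for most genes.

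The scramble libraries show how differently the lines started. Of 29 genes with a value, 15 were higher in KYSE140 by over 1 on the log2 scale and 5 were lower, where 22.1% and 27.2% of all genes were. The median of the 29 was 1.01, and that of all genes was -0.09. KRTDAP, which encodes a small secreted protein of differentiating keratinocytes, was at 52.5 TPM in KYSE140 scramble and at 0.289 TPM in TE5 scramble (log2 fold change 7.42, interval 6.44 to 9.29). S100A14 stood at 44.6 against 0.366 TPM (7.04), SPRR1B at 83.5 against 1.81 TPM (5.68) and TGM1, the membrane-bound transglutaminase, at 34.3 against 2.11 TPM (4.24). CNFN, an envelope component, stood at 56.6 against 6.80 TPM, a log2 difference of 3.22. In the opposite direction, IVL was at 0.139 TPM in KYSE140 scramble and 5.75 TPM in TE5 scramble (-5.13). S100A9 had 0 counts in KYSE140 scramble and 312 in TE5 scramble, at least 79.4-fold lower.

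Of the 5 comparisons with scramble, SOX2 silencing in KYSE140 had the most envelope genes past 1. Of the 31 measured genes, 16 were higher than scramble by over 1 on the log2 scale and 0 were lower, where 6.84% of all genes were higher and 6.15% lower. Their median change was 1.11, against 0.05 over all genes, and it was also 1.11 with S100A8 and S100A9, at 0 counts in scramble, set to their lower bounds. S100A8 and S100A9 entered only through their counts in shSOX2, so that their direction was fixed, and without them 14 of 29 genes were higher, with a median of 0.93. Among the 29, SPRR2A and TGM5 likewise entered only through shSOX2, which favours higher values, and RHCG only through scramble. None of these was past 1. The counting interval lay above 0 for 26 genes and below 0 for 2 genes. The summed level of the 40 genes was 5432 TPM in KYSE140 scramble, 4881 TPM in shTP63 and 6798 TPM in shSOX2.

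**Figure D2:**
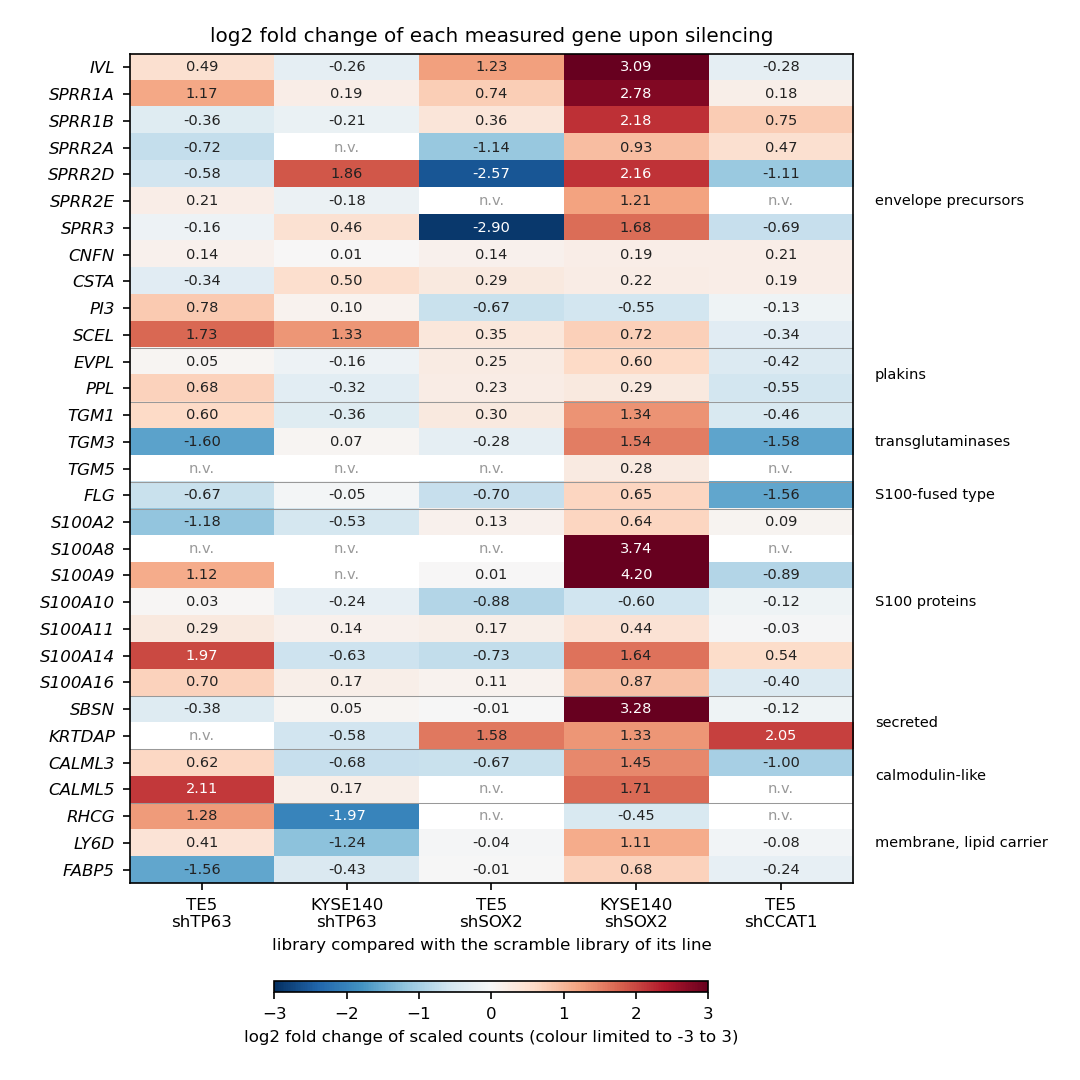
log2 fold change of scaled counts of the 31 measured genes (rows, by role) for each silenced library against the scramble library of its line (columns); red is higher, blue is lower, and n.v. marks pairs with under 10 counts in both libraries. Values for S100A8 and S100A9 in KYSE140 shSOX2 are against 0 counts and depend on the pseudocount. The column of KYSE140 shSOX2 holds 16 values above 1 and none below -1.

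Among the envelope precursors, 6 of 11 measured genes were higher by over 1 upon SOX2 silencing in KYSE140, and 0 were lower. IVL, the involucrin gene, stood at 0.139 TPM in scramble, 0.117 in shTP63 and 1.10 in shSOX2 (13, 16 and 130 counts), a log2 fold change of 3.09 (interval 2.34 to 4.11) for shSOX2. SPRR1A was at 4.58, 5.36 and 33.0 TPM in scramble, shTP63 and shSOX2, and SPRR1B was at 83.5, 74.0 and 338 TPM. Scramble and shTP63 lay close together for these 3 genes and shSOX2 lay far above both. The log2 fold changes upon SOX2 silencing were 2.78 (2.49 to 3.10) for SPRR1A and 2.18 (2.11 to 2.26) for SPRR1B. SPRR3, at 2.78, 4.11 and 8.63 TPM, was higher by 1.68 (1.35 to 2.03). SPRR2D was higher by 2.16 and SPRR2E by 1.21, with 60 and 27 counts in shSOX2, and SPRR2A stood at 0.93 with an interval of -0.30 to 2.24. CNFN was at 56.6, 59.0 and 57.9 TPM and CSTA, the cystatin A gene, was at 265, 385 and 275 TPM, both within 0.22 of scramble on the log2 scale upon SOX2 silencing. PI3, which encodes the elastase inhibitor elafin, was at 35.2, 38.9 and 21.6 TPM and was lower in shSOX2 by a log2 change of -0.55 (-0.71 to -0.38). Not all precursors moved together: the SPRR genes and IVL lay above scramble, CNFN and CSTA close to it, and PI3 below it.

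Of the 3 transglutaminases, the enzymes that cross-link these precursors, 2 were higher by over 1. TGM1 stood at 34.3 TPM in KYSE140 scramble, 23.7 in shTP63 and 59.9 in shSOX2. Its log2 fold change of scaled counts was 1.34 (1.27 to 1.42) upon SOX2 silencing, whereas by TPM the gene was higher by less than 1. TGM3, the cytosolic transglutaminase of the upper layers, stood at 0.556, 0.632 and 1.45 TPM (1.54, interval 1.14 to 1.97). TGM5 had at most 11 counts in any library and stood at 0.28 (-1.15 to 1.82). The plakin genes changed less, with EVPL at 0.60 and PPL at 0.29 on the log2 scale, and FLG, the filaggrin gene, at 0.65 (0.37 to 0.94) from a level of 0.268 TPM.

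Of the 7 measured S100 genes, 3 were higher by over 1 upon SOX2 silencing in KYSE140, of which S100A8 and S100A9 had no counts in scramble and could only be higher. S100A14 was at 44.6 TPM in scramble, 29.7 in shTP63 and 124 in shSOX2, a log2 fold change of 1.64 (1.57 to 1.72). S100A9 had 0, 0 and 14 counts in the 3 libraries and S100A8 had 0, 4 and 10, which makes S100A9 at least 4.17-fold and S100A8 at least 2.98-fold higher in shSOX2 than in scramble, with a floor of 3 counts in the scramble library. S100A8 and S100A9 form the calprotectin dimer, which is also abundant in myeloid cells. Of the 7 myeloid markers, CD14, PTPRC and ITGAM stood at 0.135, 0.0387 and 0.1545 TPM in scramble. In shSOX2 these stood at 0.189, 0.0820 and 0.2088 TPM, with PTPRC under 10 counts in both libraries. CSF3R went the other way, from 0.0885 to 0.0407 TPM, and LYZ and FCGR3A stood at 0 TPM in both. The summed level of the list, nearly all from CD68, was 9.59 TPM in scramble and 15.1 TPM in shSOX2. The part of such cells in these counts was not tested. The abundant S100 genes moved by less than 1: S100A2 stood at 2059, 1409 and 2917 TPM (0.64), S100A11 at 1274, 1442 and 1544 TPM (0.44) and S100A16 at 229, 264 and 377 TPM (0.87). S100A10, the partner of annexin A2, went the other way, at 1076, 914 and 627 TPM, with a log2 change of -0.60 (-0.63 to -0.57).

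SBSN, which encodes the secreted protein suprabasin, had the largest change among genes with counts in both libraries. It stood at 0.749 TPM in KYSE140 scramble, 0.773 in shTP63 and 6.71 in shSOX2, a log2 fold change of 3.28 (2.90 to 3.72). KRTDAP was at 52.5, 36.4 and 118 TPM (1.33, interval 1.21 to 1.45). The calmodulin-like gene CALML5 stood at 3.15, 3.65 and 9.22 TPM (1.71), and CALML3 was higher by 1.45 with 65.4 counts in shSOX2. LY6D, a surface protein of stratified epithelium, was at 1.20, 0.533 and 2.58 TPM (1.11), and FABP5, the epidermal fatty acid-binding protein, was at 94.0, 72.4 and 134 TPM (0.68). In each of these genes except CALML5 and SBSN, shTP63 was lower than scramble and shSOX2 was higher.

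Other markers moved in the same library. The 8 squamous epithelial markers summed to 20310 TPM in KYSE140 scramble, 13270 in shTP63 and 31420 in shSOX2, and 2 of the 8, KRT17 and DSG3, were higher by over 1 upon SOX2 silencing. The markers of simple epithelium (KRT8, KRT18, KRT19) summed to 2153, 2319 and 1861 TPM, those of fibroblasts to 33.3, 39.7 and 44.9 TPM, and those of T cells to 0.138, 0.00 and 0.0559 TPM. Whether a shift of squamous identity as a whole carries the change of the envelope genes was not tested.

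SOX2 silencing in TE5 gave another picture, although SOX2 mRNA was lower there. Of 26 genes with a value, 2 were higher by over 1 and 3 were lower, where 6.15% of all genes were higher and 4.8% lower, and the median was 0.06 against -0.01 over all genes. In the same library 2 of 8 squamous markers were lower by over 1, KRT6A at -2.88 and KRT14 at -1.87. KRT14 was low throughout, at 0.546 TPM in scramble and 0.202 TPM in shSOX2. Of the 8, 4 were above 0 and 4 below 0, with a median of 0.05. Among 4 measured fibroblast markers 3 were higher, with COL3A1 at 2.44 from 0.244 to 1.32 TPM. The part of these squamous and fibroblast markers in the result was not tested. IVL stood at 5.75 TPM in TE5 scramble and 13.4 TPM in shSOX2, with 8.98 TPM in shTP63 and 5.09 TPM in shCCAT1, a log2 fold change of 1.23 (1.10 to 1.37) upon SOX2 silencing. KRTDAP was at 0.289, 0.467, 0.969 and 1.58 TPM in scramble, shTP63, shSOX2 and shCCAT1, where 5 and 17 counts gave a log2 fold change of 1.58 (0.25 to 3.55) for shSOX2. IVL and KRTDAP were the 2 genes higher by over 1 upon SOX2 silencing in both lines, among 26 with a value in both, whereas 0.855% of all genes were. KRTDAP had a value in TE5 only through its 17 counts in shSOX2, which favours that direction. SPRR3 stood at 1.29 TPM in scramble and 0.215 TPM in shSOX2, from 46 and 5.40 counts, with 1.18 TPM in shTP63 and 0.991 in shCCAT1 (-2.90, interval -4.90 to -1.89). SPRR2D went from 17.5 to 2.18 counts (-2.57) and SPRR2A from 53.3 to 23.8 counts (-1.14). SPRR3 and SPRR2D entered only through scramble, which favours a lower value. S100A10 stood at 1164, 1373, 652 and 1211 TPM, with shSOX2 alone below the others (-0.88, interval -0.91 to -0.86).

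SPRR1A was at 3.29, 6.26, 4.03 and 3.02 TPM in TE5 scramble, shTP63, shSOX2 and shCCAT1, and SPRR1B at 1.81, 1.55, 2.32 and 3.30 TPM. For these genes the interval upon SOX2 silencing in TE5 reached from 0.29 to 1.22 and from -0.21 to 0.98. SBSN had 10 counts in each of the TE5 scramble, shTP63 and shSOX2 libraries and 12 in shCCAT1, and its log2 change upon SOX2 silencing was -0.01, with an interval of -1.43 to 1.41 that lies wholly below the KYSE140 interval. Of the 26 genes with a value in both lines, 14 were above 0 upon SOX2 silencing in both, 2 were below 0 in both (S100A10 and PI3) and 10 were below 0 in TE5 and above 0 in KYSE140. Over all genes with a value in both lines, 60.1% had the same sign.

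**Figure D3:**
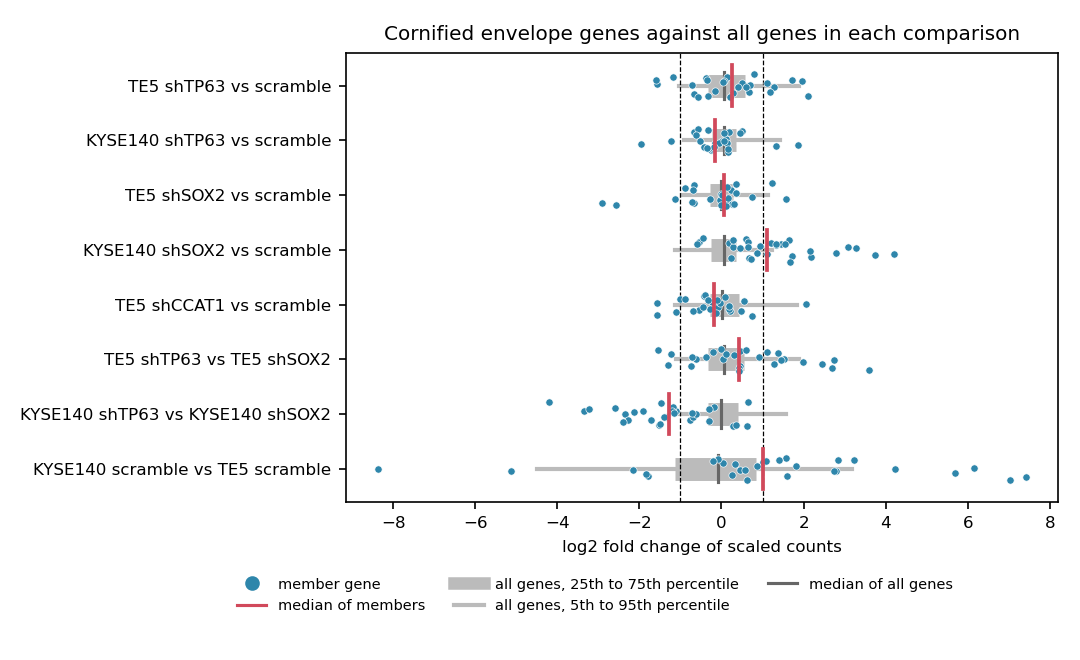
log2 fold change (x axis) of each envelope gene (blue points) in 8 comparisons (y axis), over the spread of all genes with 10 or more counts in 1 of the 2 libraries (grey); red and dark grey lines are medians and dashed lines mark -1 and 1. The members' median leaves the 25th to 75th percentile range of all genes in KYSE140 shSOX2 (1.11), in KYSE140 shTP63 against shSOX2 (-1.28) and between the scramble libraries (1.01).

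Upon TP63 silencing 1 envelope gene was past 1 in the same direction in both lines. In TE5, 6 of 28 genes with a value were higher by over 1 and 3 were lower, where 14.7% of all genes were higher and 5.45% lower, with a median of 0.25 against 0.06. CALML5 and RHCG, among the 6, entered only through shTP63, and TGM3, among the 3, only through scramble, which favours those directions. In the same TE5 library 3 of 8 squamous markers were lower by over 1 (KRT5 at -1.80, KRT6A at -2.65 and the silenced TP63), and 3 of 4 measured fibroblast markers were higher, with COL1A2 at 3.45 from 0.0882 to 0.809 TPM. The fibroblast markers summed to 15.4 TPM in TE5 scramble, 27.1 in shTP63, 14.9 in shSOX2 and 13.5 in shCCAT1, most of it COL1A1, and LUM and PDGFRB stayed under 0.1 TPM in all 4 libraries. The part of these markers in the result was not tested. In KYSE140, 2 of 27 genes were higher and 2 lower, where 8.71% and 4.17% of all genes were, with a median of -0.16 against 0.05. RHCG, among the 2 lower, entered only through scramble, which favours that direction. SCEL, which encodes the envelope precursor sciellin, was at 3.96 TPM in TE5 scramble, 15.1 in shTP63, 4.83 in shSOX2 and 3.35 in shCCAT1. In KYSE140 it was at 11.1 TPM in scramble, 28.1 in shTP63 and 16.2 in shSOX2. In both lines shTP63 was the highest library for this gene, with a log2 fold change of 1.73 (1.60 to 1.86) in TE5 and 1.33 (1.24 to 1.42) in KYSE140. SCEL was the single member past 1 in both lines, in 26 genes with a value in both, while 2.22% of all genes were higher by over 1 in both.

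The S100 genes split upon TP63 silencing. S100A2, known as a target of p63, was at 1853, 857, 2008 and 2111 TPM in TE5 scramble, shTP63, shSOX2 and shCCAT1, a log2 change of -1.18 (-1.20 to -1.16) for shTP63, and of -0.53 (-0.55 to -0.51) in KYSE140. FABP5 stood at 30.04, 11.3, 29.5 and 27.5 TPM in the same order, with -1.56 (-1.72 to -1.41) in TE5 and -0.43 (-0.50 to -0.36) in KYSE140. For both genes the shTP63 library was the lowest of its line. S100A14 was at 0.366, 1.63, 0.273 and 0.883 TPM in TE5, a log2 fold change of 1.97 (1.27 to 2.87) upon TP63 silencing, against -0.63 (-0.72 to -0.53) in KYSE140, where the gene was far more abundant. S100A9 was at 14.04, 34.01, 14.06 and 8.15 TPM in TE5, higher by 1.12 (0.93 to 1.31) in shTP63, while the myeloid markers summed to 73.1 TPM in scramble and 122 TPM in shTP63, of which CD68 made 68.9 and 116 TPM. The part of such cells was not tested. S100A11 was at 1533, 2084, 1709 and 1617 TPM and S100A16 at 173, 315, 185 and 141 TPM, with log2 fold changes of 0.29 and 0.70 upon TP63 silencing in TE5.

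Of the precursors, SPRR1A was higher by 1.17 (0.76 to 1.61) upon TP63 silencing in TE5 and SPRR2D by 1.86 (1.05 to 3.06) in KYSE140, from 11.5 to 64.7 counts. CSTA was at 148, 130, 179 and 182 TPM in TE5, with -0.34 upon TP63 silencing there and 0.50 in KYSE140. PI3 was at 5.71, 10.99, 3.54 and 5.61 TPM in TE5 (0.78, interval 0.48 to 1.10), and CNFN at 6.80, 8.33, 7.46 and 8.48 TPM. TGM1 stood at 2.11, 3.23, 2.36 and 1.69 TPM in TE5, with 0.60 (0.31 to 0.90) upon TP63 silencing, and was at -0.36 (-0.45 to -0.28) in KYSE140. LY6D was at 5.18, 8.03, 5.31 and 5.98 TPM in TE5 and was at -1.24 on the log2 scale in KYSE140 shTP63 (-2.08 to -0.51), with 39 and 24 counts. CALML5 and RHCG were higher by over 1 in TE5 shTP63, but with 10 and 13.9 counts, and TGM3 was lower with 4 against 11 counts, a direction that turned with the deposited TPM (0.05). RHCG was lower in KYSE140 shTP63, at -1.97 (-4.81 to -0.36) with 3 against 10 counts. Of the 26 genes with a value in both lines, 7 were above 0 in both upon TP63 silencing, 4 were below 0 in both and 15 differed in sign, where 64.7% of all genes had the same sign.

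TP63 and SOX2 silencing were next set against each other, since within a line they shared a lane and no scramble library enters. In KYSE140, 19 of 30 genes with a value were lower in shTP63 than in shSOX2 by over 1 and 0 were higher, where 6.6% of all genes were lower and 10.3% higher, and the median was -1.28. In TE5, 10 of 28 genes were higher in shTP63 and 3 lower, where 14.2% of all genes were higher and 6.14% lower, with a median of 0.44. Of the 10, SPRR2D, SPRR2E, SPRR3, CALML3, CALML5 and RHCG had under 10 counts in shSOX2. They entered only through shTP63, which favours that direction. KRTDAP, among the 3 lower, entered only through shSOX2. In KYSE140, S100A8, S100A9, TGM5 and SPRR2A, among the 19 lower, likewise entered only through shSOX2. The KYSE140 values included IVL at -3.35 (-4.29 to -2.68), SBSN at -3.23 (-3.59 to -2.92), SPRR1A at -2.60, SPRR1B at -2.40, S100A14 at -2.27 and TGM1 at -1.71. IVL, SBSN and SPRR1B were below 0 in TE5 as well, at -0.75, -0.37 and -0.73, of which SBSN had an interval that reached across 0. Of 27 genes with a value in both lines, 8 were below 0 in both, 3 (PI3, S100A10, SCEL) were above 0 in both, and 15 were above 0 in TE5 and below 0 in KYSE140, where 64.6% of all genes had the same sign. FABP5, KRTDAP and S100A2 were lower in shTP63 by over 1 in both lines, as were 1.32% of all genes. S100A14, SPRR3, SPRR2E, CALML3, CALML5 and S100A9 were higher by over 1 in TE5 and lower by over 1 in KYSE140, as were 0.762% of all genes. Each of these but S100A14 had under 10 counts in 1 library of 1 line, which favours that direction there.

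**Figure D4:**
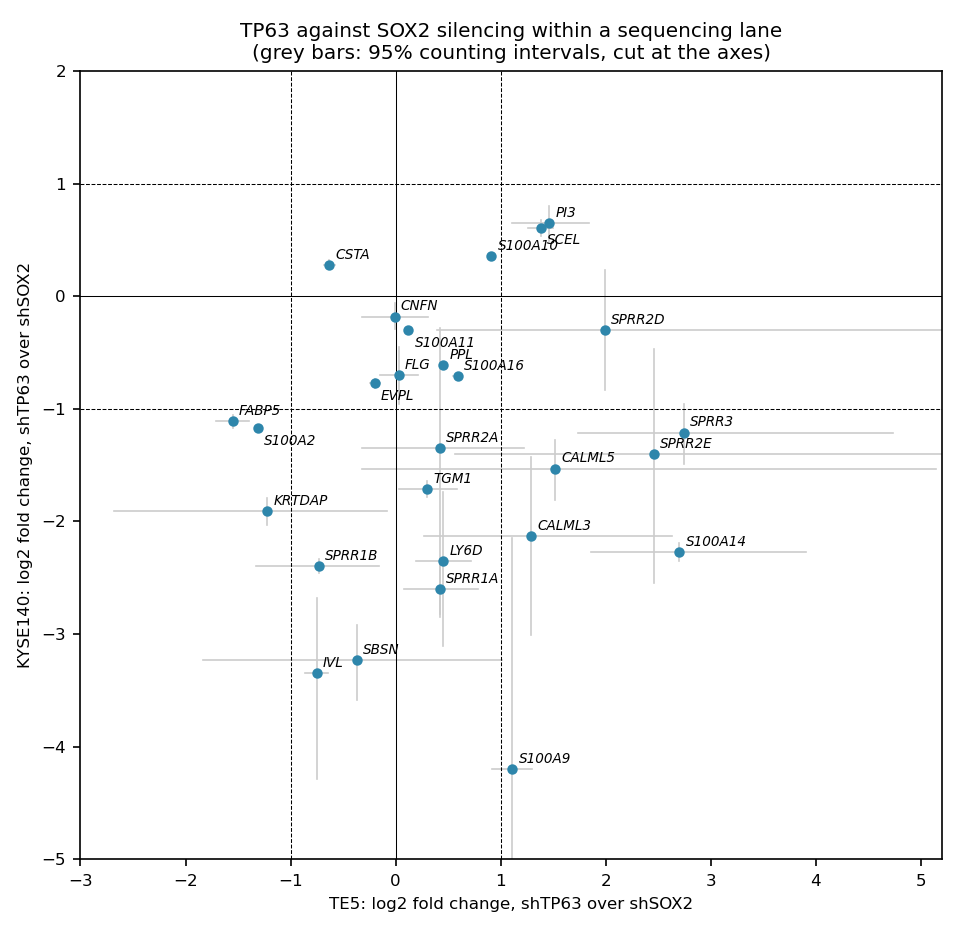
log2 fold change of shTP63 over shSOX2 for the 27 genes with a value in both lines, in TE5 (x axis) and KYSE140 (y axis); grey bars are 95% counting intervals and dashed lines mark -1 and 1. Points spread over both sides of 0 in TE5 and lie mostly below 0 in KYSE140, with IVL at -3.35 and SCEL at 0.61 on the y axis.

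The lines were then taken as replicates in edgeR's quasi-likelihood test over the scramble, shTP63 and shSOX2 libraries of both lines, with the line as a term, 26261 features and 2 residual degrees of freedom. Of the 29 envelope genes that passed its filter, 2 had a Benjamini-Hochberg adjusted p under 0.1 between TP63 and SOX2 silencing, both lower in shTP63, where the test called 0.876% of all features higher and 1.34% lower. S100A2 differed by a log2 fold change of -1.21 (SE 0.18, edgeR adjusted p = 0.0646) and KRTDAP by -1.73 (SE 0.30, edgeR adjusted p = 0.0792). FABP5 (-1.27, edgeR adjusted p = 0.107), SCEL (1.02, edgeR adjusted p = 0.113) and SPRR1B (-1.81, edgeR adjusted p = 0.133) did not pass. Against scramble the test called 0 of the 29 upon SOX2 silencing, where it called 0.0533% of all features, each of them lower, and 0 of the 29 upon TP63 silencing, where it called 0 features. At an unadjusted p under 0.05, 5 of the 29 were higher and 1 lower upon SOX2 silencing, where 3.66% and 4.91% of all features were, and 1 was higher and 2 lower upon TP63 silencing, where 5.37% and 7.77% were.

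DESeq2 with the same terms called more genes. Upon TP63 silencing it called 2.12% of all features higher and 5.61% lower, and among the 29 it called SCEL higher (1.52, DESeq2 adjusted p = 5.63e-07) and FABP5 and S100A2 lower (-1.02 and -0.88, DESeq2 adjusted p = 0.0131 and 0.00108). Upon SOX2 silencing it called 0.986% higher and 1.89% lower. Of the members it called IVL (2.29, DESeq2 adjusted p = 0.0119), KRTDAP (1.37, DESeq2 adjusted p = 0.0229) and SPRR1B (1.42, DESeq2 adjusted p = 0.0367) higher and S100A10 lower (-0.76, DESeq2 adjusted p = 0.00731). Between TP63 and SOX2 silencing it called 4.04% of features higher and 6.61% lower, with PI3, S100A10 and SCEL higher and FABP5, IVL, KRTDAP, S100A2, SBSN and SPRR1B lower among the members. In the edgeR test SPRR3, SPRR2D and SPRR2E stood at 0.05, 0.04 and 0.07 upon SOX2 silencing, with SEs of 1.16, 1.56 and 1.29.

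CCAT1 silencing was done in TE5 alone among the libraries used here. Of 26 genes with a value, 1 was higher by over 1 and 4 were lower, where 11.7% of all genes were higher and 5.86% lower, and the median was -0.18 against 0.02. These counts depended on the processing: 2 were lower with total counts, 1 was lower with TPM, a pseudocount of 10 or a minimum of 50 counts, and 2 were higher with TPM and 0 with the minimum of 50. FLG was at 1.05 TPM in TE5 scramble, 0.733 in shTP63, 0.634 in shSOX2 and 0.3799 in shCCAT1. All 3 silenced libraries were below scramble for FLG and shCCAT1 was the lowest, at a log2 change of -1.56 (-1.76 to -1.37). KRTDAP, the 1 higher gene, had 5 counts in scramble and 31 in shCCAT1 (2.05, interval 0.87 to 3.96), so that it entered only through shCCAT1. SPRR2D, TGM3 and CALML3 were the other lower genes, with at most 17.5 counts in either library. Of these, TGM3 and CALML3 entered only through scramble, which favours that direction. PPL, at 63.3, 113, 74.2 and 46.8 TPM in TE5 scramble, shTP63, shSOX2 and shCCAT1, and EVPL, at 23.8, 27.2, 27.9 and 20.1 TPM, were lowest in shCCAT1, at -0.55 and -0.42.

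Position on the chromosome was compared next. The epidermal differentiation complex was taken as chr1:151955391-153604515 (hg19), from S100A10 to S100A1, and held 22 of the 40 genes, 15 of them measured. Upon SOX2 silencing in KYSE140, 9 of the 15 measured genes inside were higher by over 1 (median 1.64), as were 7 of the 16 elsewhere (median 0.70). Over all genes 6.84% were. The 9 include S100A8 and S100A9, which had 0 counts in scramble and could only be higher, and which raise the count and median inside. In TE5 the same shRNA gave 1 higher and 3 lower of 13 inside and 1 higher and 0 lower of 13 elsewhere. Over all genes in TE5, 6.15% were higher and 4.8% lower. The members inside that were past 1 in KYSE140 lay between IVL and SPRR2E, apart from S100A9, S100A8 and S100A14 further along. All 7 measured members from IVL to SPRR2E were above 0, of which SPRR2A, at 0.93, entered only through shSOX2. LINC01527, a gene between them that is not a member, stood at 0.06. Genes of the complex outside the list were also past 1, among them HRNR at 1.57, PGLYRP3 at 1.60 and PGLYRP4 at 1.33, with LORICRIN at -1.12. The abundant genes at the edges, S100A10 and S100A11 on one side and S100A2 and S100A16 on the other, were within 1 of scramble. In TE5 the stretch from IVL to SPRR2E held IVL at 1.23 as well as SPRR3 at -2.90 and SPRR2D at -2.57. Both of the latter entered there only through scramble, which favours a lower value.

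**Figure D5:**
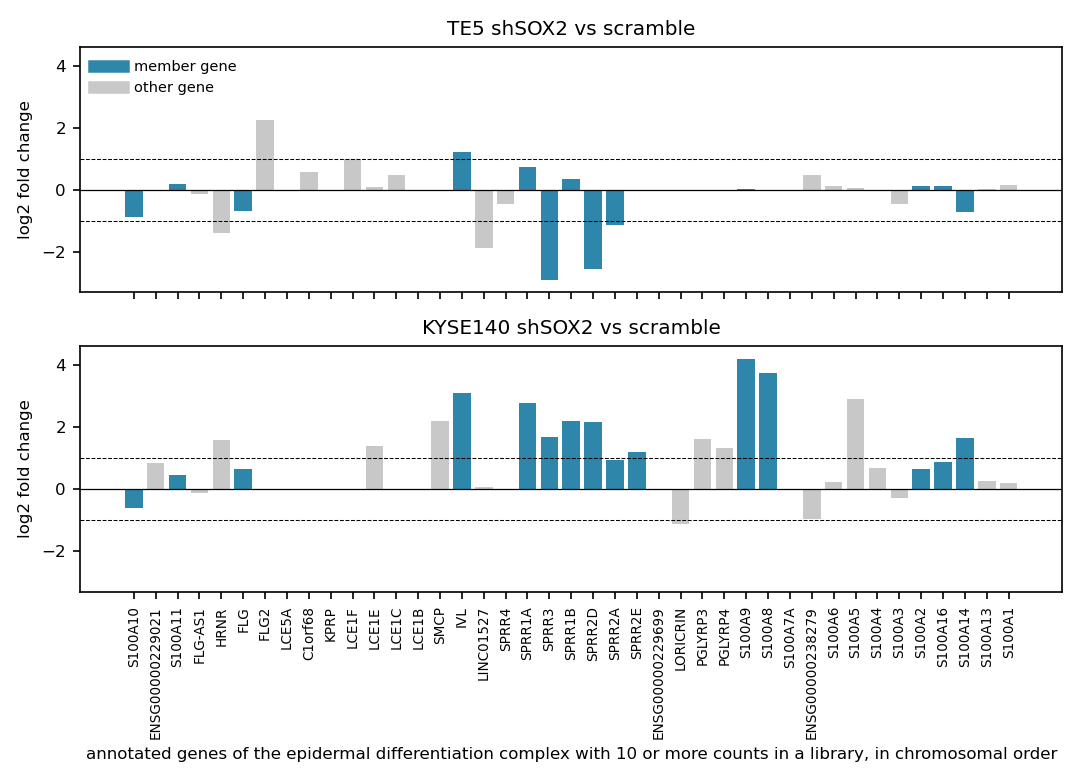
log2 fold change upon SOX2 silencing (y axis) of genes of the epidermal differentiation complex in chromosomal order (x axis) in TE5 (top) and KYSE140 (bottom); blue bars are the genes described, grey bars are others, and a missing bar means under 10 counts in both libraries. In KYSE140 the bars from IVL to SPRR2E are above 0, and in TE5 they take both signs.

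Of 61 further genes of the pathway that are not among the 40, 60 were in the files and 39 were measured. Upon SOX2 silencing in KYSE140, 17 of 30 with a value were higher by over 1 and 1 (LORICRIN, the loricrin gene, at 2.85 TPM in scramble and 1.16 in shSOX2) was lower, with a median of 1.18, where 6.84% of all genes were higher and 6.15% lower. Among these 17, S100A5, LCE1E, TGM2 and CASP14 had under 10 counts in scramble and entered only through shSOX2, which favours that direction. In TE5 the SOX2 shRNA gave 3 higher and 3 lower of 31, where 6.15% and 4.8% of all genes were. TP63 silencing gave 9 higher and 5 lower of 34 in TE5 (14.7% and 5.45% of all genes) and 7 higher and 3 lower of 30 in KYSE140 (8.71% and 4.17%). Some genes in these other counts likewise entered through only 1 of the 2 libraries, in either direction. KRT1, a keratin of suprabasal skin, was at 0.139, 0.693 and 1.44 TPM in KYSE140 scramble, shTP63 and shSOX2 (3.39 upon SOX2 silencing), and KRT4, its counterpart in esophagus, at 0.386, 0.429 and 1.47 TPM (2.90). DSG1, the desmoglein of upper layers, was higher by 2.67 and SERPINB2, an inhibitor of plasminogen activators, by 2.34. These 4 genes were highest in the shSOX2 library of KYSE140, like IVL, SBSN and the SPRR genes. KRT13, the main suprabasal keratin of esophagus, was at 131, 33.4 and 148 TPM, with -2.10 upon TP63 silencing in KYSE140 and 0.34 upon SOX2 silencing. In TE5 scramble and shTP63, TGM2 stood at 1.10 and 5.71 TPM (2.36), S100P at 4.17 and 24.4 TPM (2.16) and ABCA12, a lipid transporter of the barrier, at 2.81 and 9.35 TPM (1.64).

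Among 15 regulators of epidermal differentiation, 2 of 14 with a value were higher by over 1 upon SOX2 silencing in KYSE140, ZNF750 (1.13) and EHF (1.10), where 6.84% of all genes were. ZNF750, which acts downstream of p63, was at 6.35, 3.62 and 12.95 TPM in KYSE140 scramble, shTP63 and shSOX2. KLF4, at 59.7, 65.9 and 58.9 TPM, and GRHL3, at 62.8, 46.0 and 54.9 TPM, were within 0.28 of scramble on the log2 scale in both libraries. In TE5, PRDM1 was higher upon TP63 silencing (1.67) and ZNF750 lower (-1.32), and GRHL3 was lower upon SOX2 silencing (-1.04).

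Some of these genes share sequence, so their counts depend on how reads were split among copies. Of the words of 31 bases in the reference transcripts, SPRR2A shared 52.7% with other genes (mainly SPRR2B, SPRR2D and SPRR2E), SPRR2E shared 32.3% and SPRR2D 29.4%. CALML3 shared 34.9%, with CALML3-AS1 and another overlapping entry, and FABP5 shared 20.5%, with its pseudogenes. SPRR1A and SPRR1B shared 14.9% and 15.6%, mainly with each other, and IVL, SPRR3, S100A2, S100A9, S100A10, S100A14, SBSN, KRTDAP, TGM1 and TGM3 shared 0%. Among the 26 measured genes with under 20% of such words, 13 were higher by over 1 upon SOX2 silencing in KYSE140 and 0 lower. Over all genes 6.84% were higher and 6.15% lower. The 13 include S100A8 and S100A9, which had 0 counts in scramble and could only be higher. The effect of shared sequence on the counts was not tested.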

How the data were processed

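RNA of 7 libraries was sequenced as paired reads of 100 bases, and per the authors' methods the reads were assigned to hg19 Ensembl transcripts with Kallisto, whose deposited tables give estimated counts and TPM per transcript. Transcripts were summed to genes with GENCODE (93.6% of counts), by flanking transcripts of 1 gene (3.72%) or by the authors' gene table (0.000926%), and 2.7% stayed unassigned. Estimated counts were rounded for the tests and scaled by TMM (edgeR 4.0.16, R 4.3.3). Pairs of libraries were compared as log2 of scaled counts plus 1 where either library held 10 counts or more, called past 1, with 95% exact (Clopper-Pearson) binomial intervals for counting error computed without the added 1, and with a floor of 3 counts in a library for folds against 0. edgeR's quasi-likelihood test took 6 libraries after the filterByExpr filter, with the line as a term and an adjusted p under 0.1. In data simulated at the fitted dispersion for shTP63 against scramble (26261 genes), it recovered 95% of 200 genes changed by 2 on the log2 scale, with 10 false calls. The simulation gave both lines the same means and the same response, used the same dispersion for all genes and changed only well-counted genes. Its recovery therefore does not carry over to the real libraries, where the test called 0 features for this contrast. Nothing states that the libraries are separate cultures. Alternatives were DESeq2 1.42.0, other scalings, pseudocounts and count minimums, and fits without the line term or with all 7 libraries.

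The members and gene lists were chosen with earlier results of these data known. Full TPM values were given for measured members past 1 in the same direction in both lines upon TP63 or SOX2 silencing, with 100 TPM or more in a scramble library, or past 1 in any comparison with 100 counts or more. Of the other pathway genes, the 8 with the largest change among those with 100 counts or more were named. The authors' gene table served only to place 2 transcripts, and no other column of it was used.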

Additional observations from a re-analysis of the deposited data

Results flagged for a closer look

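A set of 4 envelope genes went opposite ways in the lines under 1 shRNA, each by over 0.5 on the log2 scale and with counting intervals that did not reach 0 in either line. Other genes had opposite signs of that size with an interval across 0 in at least 1 line. The share of all genes that meet the same rule was not counted, so whether 4 is many cannot be said. Over all genes with a value in both lines, 64.7% had the same sign upon TP63 silencing and 60.1% upon SOX2 silencing. With 1 library per condition these differences were not tested. Upon TP63 silencing S100A14 stood at 1.97 in TE5 and -0.63 in KYSE140. Upon SOX2 silencing FLG stood at -0.70 in TE5 and 0.65 in KYSE140, SPRR2D at -2.57 and 2.16, and SPRR3 at -2.90 and 1.68. SPRR2D had at most 64.7 counts in any library and shares sequence with other SPRR2 genes, and SPRR3 had 5.40 counts in TE5 shSOX2. SPRR2D and SPRR3 entered in TE5 only through scramble, which favours a lower value there. The part of counting, lane and line in these differences was not tested.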

How the results depend on the processing

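Of the fitted tests over both lines, edgeR called 0 members between TP63 silencing and scramble, while it called 3 with no filter on low counts and DESeq2 called 3. Between SOX2 silencing and scramble it called 0, and DESeq2 called 4. Between TP63 and SOX2 silencing it called 2, against 7 with no filter, 0 without the cell line term and 9 with DESeq2. With a minimum of 1 count in place of 10, members higher numbered 12 in TE5 shTP63, 6 in TE5 shSOX2, 6 in KYSE140 shTP63 and 1 in KYSE140 shTP63 against shSOX2, and members lower numbered 6 in TE5 shSOX2, 1 in KYSE140 shSOX2 and 6 in TE5 shTP63 against shSOX2. With a minimum of 50 counts, 1 was higher and 1 lower in TE5 shSOX2, 0 higher and 1 lower in TE5 shCCAT1, 0 lower in KYSE140 shTP63 and 5 higher in TE5 shTP63 against shSOX2. With a pseudocount of 10, 1 was higher in TE5 shSOX2, 1 lower in TE5 shCCAT1, 0 lower in KYSE140 shTP63 and 6 higher in TE5 shTP63 against shSOX2. In TE5 shCCAT1 the deposited TPM gave 2 higher and 1 lower, and total counts gave 2 lower. TGM3 in TE5 shTP63 turned from -1.60 to 0.05 with TPM. Apart from the differences by construction of the count minimums, the cause was not tested. Of the other counts of members, 101 stayed within 1.5 times, among them the 16 higher in KYSE140 shSOX2. Scaling by total counts moved the median of all genes in TE5 shTP63 from 0.06 to 0.20. The tests over both lines already pair the libraries by line through the line term, and the fit without that term is the unpaired one. Leaving out a library leaves no second value of its condition in that line, so it was not run. Low counts limit SPRR2A, SPRR2D, SPRR2E, S100A8, TGM5, CALML3 and RHCG.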
